A study of Mus musculus with 12 samples.

Results

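The 9 genes described here act on retinoic acid: 3 retinaldehyde dehydrogenases that make it (Aldh1a1, Aldh1a2, Aldh1a3), 2 cytochrome P450 enzymes that break it down (Cyp26a1, Cyp26b1), the retinol receptor Stra6, the 2 cellular retinoic acid binding proteins (Crabp1, Crabp2) and the nuclear receptor Rarb. They were picked by symbol and role from the 32285 genes of the count matrices, with earlier results of these data known. All 9 could be tested in the sum of gonadal somatic cells. The libraries came from dissociated whole mouse gonads at E12 (23 ± 3 tail somites), profiled with 3′ droplet single-cell RNA sequencing that counts unique molecular identifiers (UMIs). There were 6 groups of 2 libraries: XX WT, XY WT, XX -KTS KO, XY -KTS KO, XX +KTS KO and XY +KTS KO. Both mutations concern Wt1, which encodes a zinc finger transcription factor made as splice isoforms with (+KTS) or without (-KTS) the residues lysine, threonine and serine. -KTS KO animals were homozygous for loss of the -KTS isoform and +KTS KO animals for loss of the +KTS isoform, all on a mixed B6CBAF1/JRj background. The alleles are constitutive, so every cell of a mutant gonad carried them, and both alleles of +KTS KO animals still encoded the -KTS isoform. UMIs at the 3′ end do not tell the isoforms apart. The 2 XY -KTS KO libraries and replicate 2 of XX -KTS KO were each listed with several embryos, and every other library with a single entry. Whether the 2 libraries of a group came from separate litters was not given, so p-values measure the spread between these libraries.

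Retinoic acid is made from vitamin A by oxidation of retinol to retinaldehyde and then, by the Aldh1a enzymes, to the acid, and Cyp26 enzymes oxidise it further and so clear it. It acts by binding nuclear receptors, RARs paired with RXRs, that sit on response elements of target genes, Rarb and Cyp26a1 among them. In the fetal gonad it is best known as a signal tied to the entry of ovarian germ cells into meiosis, and Cyp26b1 in testis somatic cells is known for keeping it away from male germ cells.

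After removal of low-quality barcodes and doublets 76976 of 103730 barcodes were kept, of which 66017 were gonadal somatic cells with a median of 12906 UMIs. Totals per library ran from 108111924 to 147968666 UMIs over all barcodes and from 57002689 to 97725319 over gonadal somatic cells. Xist and Y-linked genes matched the sex label of all 12 libraries, and Wt1 lay between 158 and 309 CPM (UMIs of a gene scaled to the same total UMIs in every library). Cells were assigned to classes from marker genes, with the retinoic acid genes left out of clustering, and the classes are called "-like". The supporting lineage class pooled pre-supporting-like cells with those named Sertoli-like or pre-granulosa-like and held 49.4%, 28.8%, 20.1%, 23.5%, 3.62% and 25.1% of somatic cells in XX WT, XY WT, XX -KTS KO, XY -KTS KO, XX +KTS KO and XY +KTS KO. The 2 XY +KTS KO libraries stood apart from each other in that class, at 48.2% of somatic cells in replicate 1 and 2.92% in replicate 2. Of these supporting cells, 3002 of 3101 were pre-granulosa-like in replicate 1 and 187 of 196 were pre-supporting-like in replicate 2. Means, SDs and calls of XY +KTS KO in that class therefore join mostly different kinds of cells. Unnamed clusters lay outside the class. Cluster 0, unnamed, held 41.1% and 31.9% of somatic cells in XX +KTS KO replicates 1 and 2. It held 0.746% and 35.4% in those of XY +KTS KO. Cluster 16, also unnamed, held 10.6% and 22.7% in XY WT replicates 1 and 2. The class may therefore leave out supporting cells. Within a class the genotypes lay mostly in different clusters. The -KTS KO supporting cells formed cluster 5, named pre-supporting-like on 3 raised markers with none among its 10 leading genes. Most XX WT supporting cells lay in cluster 3 (pre-granulosa-like), most XY WT ones in cluster 11 (Sertoli-like) and most XY +KTS KO replicate 1 ones in cluster 10 (pre-granulosa-like). In XX WT replicates 1 and 2, 538 of 2765 and 453 of 2717 supporting cells were pre-supporting-like. Interstitial-progenitor-like cells of -KTS KO gonads lay mostly in cluster 1, those of XY WT in clusters 4 and 14 and those of +KTS KO gonads mostly in clusters 7 and 8, except that replicate 1 of XY +KTS KO had 1718 cells in cluster 17. XX WT cells of that class were spread over clusters 4, 14 and 24 and, in replicate 2, also cluster 7 (425 cells) and cluster 8 (244 cells). Coelomic-epithelium-like cells split likewise into clusters 6, 12 and 9.

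The promoters are shown because Rarb and Cyp26a1, 2 members known as direct targets of retinoic acid, moved in different directions in these data. Of the 9 members, 7 had a promoter window (250 bases before to 50 bases after the start site, 11 windows) in the RefSeq table for GRCm38.p6. Aldh1a3 and Crabp2 had no entry. A DR5 retinoic acid response element, 2 receptor half-sites in the same orientation with 5 bases between them, was searched on both strands and was found in 32 of 32851 windows (0.0974%). Among the members it was found in the windows of Rarb and Cyp26a1. A DR2 element was found in 0.268% of windows and in no member window. A match is a description of letters and does not show binding. The windows below run from position -120 to position -11 relative to the start site, 5′ to 3′ on the strand of the gene, with the 17 bases of the element in capitals.
Rarb, chr14:16575487-16575596, minus strand: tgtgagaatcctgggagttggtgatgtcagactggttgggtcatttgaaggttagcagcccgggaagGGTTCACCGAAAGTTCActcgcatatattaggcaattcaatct
Cyp26a1, chr19:37697688-37697797, plus strand: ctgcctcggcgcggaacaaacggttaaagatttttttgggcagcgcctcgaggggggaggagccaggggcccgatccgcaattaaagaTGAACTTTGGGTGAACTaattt
The Rarb window lay inside the annotated gene (chr14:16430839-16819156), away from its upstream end, so its start site is an internal one. UMIs at the 3′ end do not tell start sites apart. The element began at -53 in that Rarb window and lay on the strand of the gene. In Cyp26a1 it began at -32 and lay on the opposite strand, where it reads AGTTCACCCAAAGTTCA.

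In gonadal somatic cells each comparison set the sum of UMIs per library against that of its control with edgeR's quasi-likelihood test, and a gene was called at a Benjamini-Hochberg adjusted p of 0.05 over the 17695 genes tested. In such sums fewer cells of a type and less RNA per cell cannot be told apart. In XX -KTS KO against XX WT 3 members were higher and 1 lower, where 6.89% of all genes tested were called higher and 9.62% lower (16.5% together). In XY -KTS KO against XY WT 3 were higher and 2 lower, where 11.1% of all genes were higher and 12.5% lower (23.7% together). In XX +KTS KO 2 were lower and none higher, where 2.76% of all genes were lower and 2.4% higher (5.16% together). In XY +KTS KO 1 was higher and 3 lower, where 6.18% of all genes were higher and 6.56% lower (12.7% together). Between the controls, 3 were higher and 1 lower in XY WT than in XX WT, where 7.03% of all genes were higher and 6.35% lower (13.4% together). The median log2 fold change (log2FC) of the 9 members was 0.12, 0.33, -0.30, -0.07 and -0.09 in these 5 comparisons, and that of all genes 0.01, 0.02, 0.00, 0.05 and -0.02. With 9 genes, the called shares of 4, 5, 2, 4 and 4 members lay above the share of all genes in each comparison, and no test of that difference was made. XX WT and XY WT each serve in several comparisons, so these counts are not independent of each other.

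**Figure D1:**
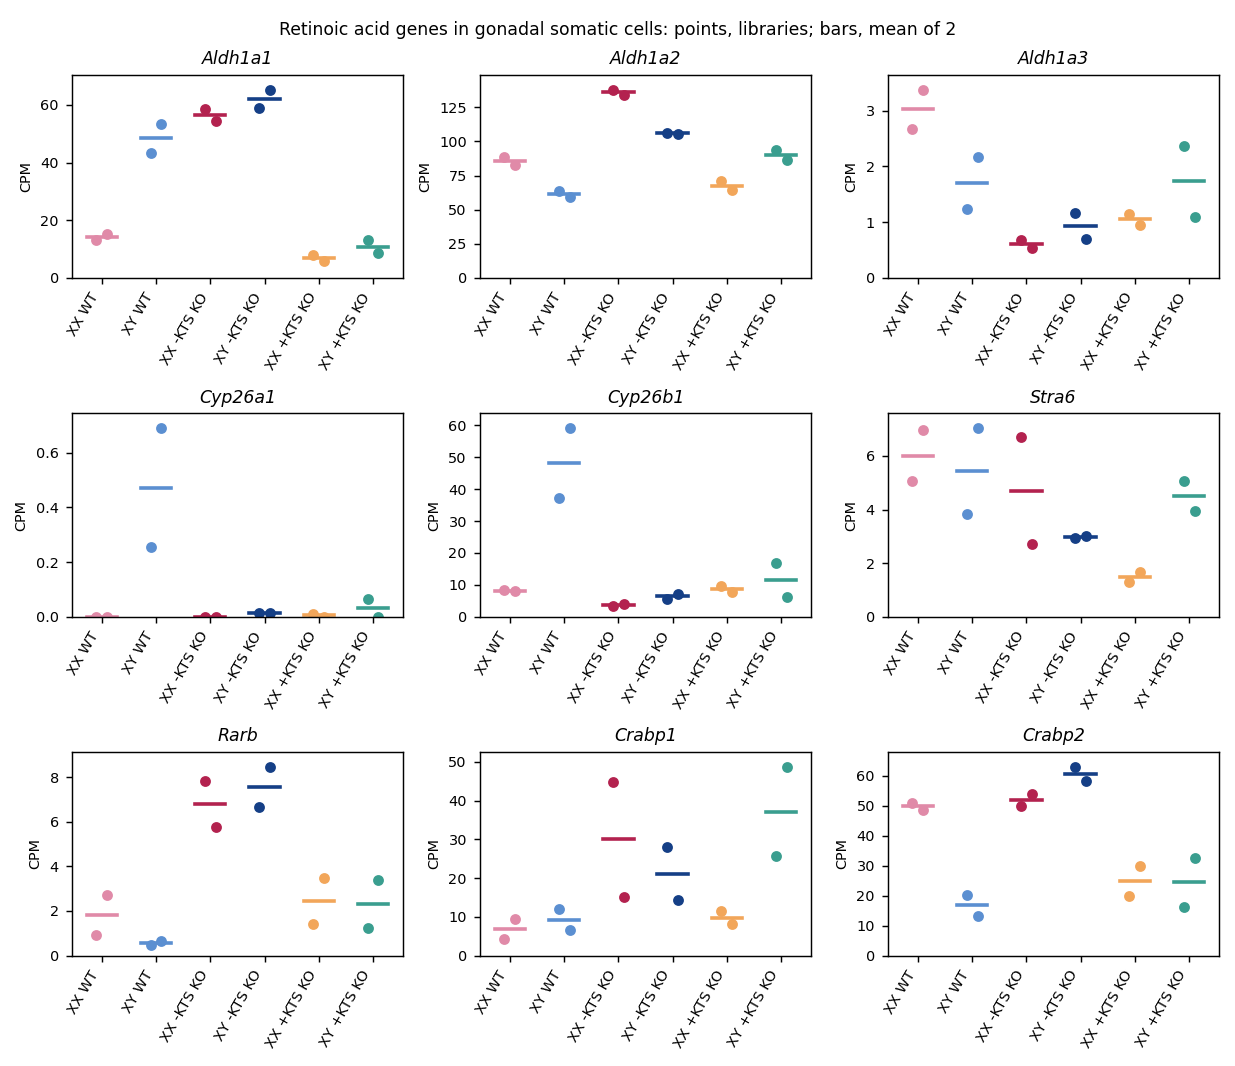
Level of each of the 9 genes in gonadal somatic cells, in CPM (linear axis from 0), with 1 point per library and a bar at the mean of the 2 libraries of a group. Aldh1a1 was at 54.3 to 65.3 CPM in the 4 -KTS KO libraries and at 5.90 to 13.1 CPM in the 4 +KTS KO libraries, and Cyp26b1 was at 37.3 and 59.1 CPM in XY WT and below 17 CPM in the other 10 libraries.

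Aldh1a1 (chr19:20492715-20643465, plus strand, GRCm38), which encodes a retinaldehyde dehydrogenase that makes retinoic acid, was at 13.1 and 15.1 CPM in the 2 XX WT libraries and at 43.5 and 53.5 CPM in XY WT. In -KTS KO gonads it was at 58.5 and 54.3 CPM in XX and at 59.1 and 65.3 CPM in XY. In +KTS KO gonads it was at 7.89 and 5.90 CPM in XX and at 13.1 and 8.58 CPM in XY. Both sexes of the -KTS KO therefore lay above both XY WT libraries, and both sexes of the +KTS KO lay at or below the XX WT range. Aldh1a1 rose in XX -KTS KO (log2FC 2.06 ± 0.20 SE, edgeR adjusted p = 0.000289). It fell in XY +KTS KO (log2FC -2.26 ± 0.20, edgeR adjusted p = 0.00032) and was higher in XY WT than in XX WT (log2FC 1.85 ± 0.19, edgeR adjusted p = 0.000508). These 3 calls held in every alternative tried. XY -KTS KO against XY WT was not called in gonadal somatic cells. The fall in XX +KTS KO (log2FC -0.98 ± 0.19, edgeR adjusted p = 0.0203) was lost without XX WT replicate 1 (edgeR adjusted p = 0.077), XX WT replicate 2 (edgeR adjusted p = 0.116) or XX +KTS KO replicate 2 (edgeR adjusted p = 0.145). It was also lost with all kept cells, germ-like and other non-somatic cells included (edgeR adjusted p = 0.11).

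Most somatic Aldh1a1 UMIs of the -KTS KO lay in the supporting lineage, 80.9% in XX and 85.1% in XY, from 20.1% and 23.5% of the somatic cells. In that class Aldh1a1 was at 14.3 and 16.6 CPM in XX WT, at 105.9 and 84.95 CPM in XY WT, at 208 and 171 CPM in XX -KTS KO and at 188 and 217 CPM in XY -KTS KO. It was at 5.68 and 7.75 CPM in XX +KTS KO and at 22.4 and 4.39 CPM in XY +KTS KO. All 4 -KTS KO libraries lay above all others. In supporting cells Aldh1a1 rose in XX -KTS KO (log2FC 3.71 ± 0.41, edgeR adjusted p = 0.0002). It fell in XY +KTS KO (log2FC -2.84 ± 0.41, edgeR adjusted p = 0.000584) and was higher in XY WT than in XX WT (log2FC 2.74 ± 0.39, edgeR adjusted p = 0.000446), and each of these calls held in every alternative tried. XY -KTS KO against XY WT passed narrowly there (log2FC 1.07 ± 0.37, edgeR adjusted p = 0.044). That call was lost without XY WT replicate 1 (edgeR adjusted p = 0.0635), XY WT replicate 2 (edgeR adjusted p = 0.205), XY -KTS KO replicate 1 (edgeR adjusted p = 0.0851) or XY -KTS KO replicate 2 (edgeR adjusted p = 0.151), and at a clustering resolution of 1.2 (edgeR adjusted p = 0.064). In interstitial-progenitor-like cells it fell from 11.3 and 19.4 CPM in XY WT to 4.80 and 6.64 CPM in XY +KTS KO (log2FC -1.48 ± 0.29, edgeR adjusted p = 0.0173), a call lost without XY WT replicate 2 (edgeR adjusted p = 0.0889) or XY +KTS KO replicate 1 (edgeR adjusted p = 0.0851). The 2 XY +KTS KO libraries differed in the clusters that made up this class, as given above. Aldh1a1 ran from 3.96 to 19.4 CPM in interstitial-progenitor-like cells and reached at most 3.99 CPM in germ-like cells over the 12 libraries. Somatic cells of unnamed clusters had it at 81.7 and 77.2 CPM in XY WT and at 44.7 and 48.1 CPM in XX -KTS KO, and at 6.57 to 23.0 CPM in the other 8 libraries.

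Counted by cell, after thinning to 5000 UMIs, 6.64% ± 0.75 (SD, n = 2) of XX WT supporting cells and 33.1% ± 4.05 of XY WT ones had an Aldh1a1 UMI. In the -KTS KO the share was 52.8% ± 4.10 for XX and 55.0% ± 0.50 for XY supporting cells. In the +KTS KO it was 3.06% ± 0.24 for XX and 5.52% ± 4.12 for XY. Thinned germ-like cells gave at most 0.64% as the mean of a group. That leaves out 417 shallow cells of the 1277 germ-like cells of XX -KTS KO replicate 2. The germ-like cluster 23 had Aldh1a1 at 17.2 CPM over its 984 cells. Without thinning the shares in XX WT, XY WT, XX and XY -KTS KO, and XX and XY +KTS KO were 15.0%, 55.4%, 78.0%, 78.5%, 8.23% and 10.1%, with median depths of 9536 to 18469 UMIs for supporting cells and 21921 to 60206 UMIs for germ-like cells. Thinning left out between 21 and 840 supporting cells per group, the 840 being of 3297 in XY +KTS KO.

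**Figure D2:**
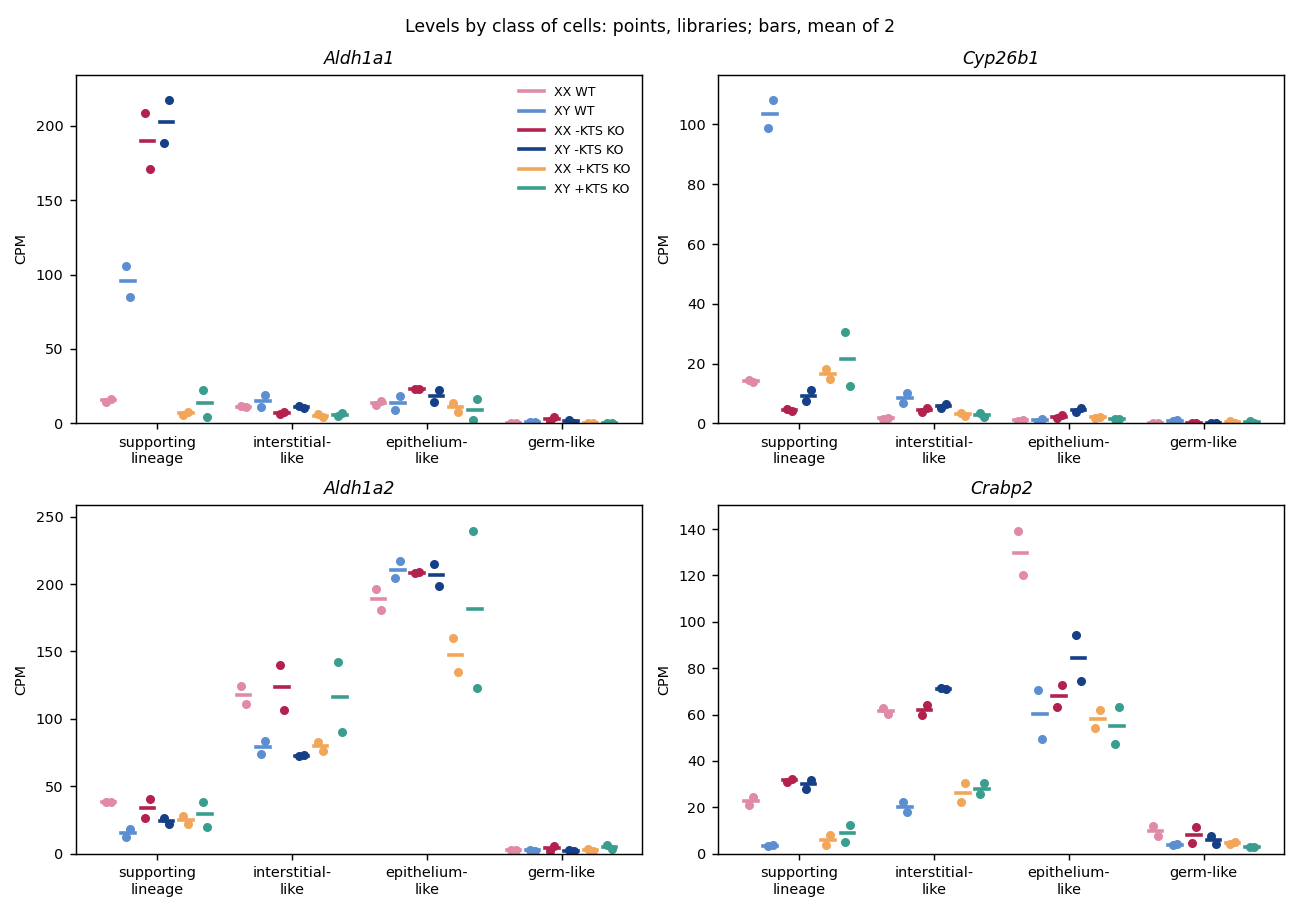
Levels of Aldh1a1, Cyp26b1, Aldh1a2 and Crabp2 in 4 classes of cells, in CPM (linear axes from 0), with 1 point per library and a bar at the mean of 2. Aldh1a1 was high in the supporting lineage of XY WT and both -KTS KO groups, Cyp26b1 in that of XY WT alone, and Aldh1a2 ran from 123 to 240 CPM in coelomic-epithelium-like cells of all 12 libraries.

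Aldh1a2 (chr9:71215789-71296243, plus strand), the dehydrogenase that makes most retinoic acid in the embryo, was at 88.7 and 82.4 CPM in XX WT somatic cells and at 63.8 and 59.3 CPM in XY WT. It was at 138 and 134 CPM in XX -KTS KO and at 106 in both XY -KTS KO libraries. It was at 70.7 and 64.6 CPM in XX +KTS KO and at 93.4 and 86.4 CPM in XY +KTS KO. The -KTS KO libraries lay above both controls in each sex. Aldh1a2 rose in XY -KTS KO (log2FC 0.75 ± 0.13, edgeR adjusted p = 0.00294), which held in every alternative, and in XX -KTS KO (log2FC 0.73 ± 0.13, edgeR adjusted p = 0.00494), which was lost without XX WT replicate 2 (edgeR adjusted p = 0.053). The rise in XY +KTS KO (log2FC 0.46 ± 0.13, edgeR adjusted p = 0.0449) was lost without any 1 of the 4 libraries compared, with an edgeR adjusted p of 0.0739 and 0.198 without XY WT replicates 1 and 2 and 0.0706 and 0.0797 without XY +KTS KO replicates 1 and 2, and with no filter on low counts (edgeR adjusted p = 0.0805). In coelomic-epithelium-like cells the level was 197 and 181 CPM in XX WT, 204 and 217 in XY WT, 215 and 199 in XY -KTS KO and 208 and 209 in XX -KTS KO, and Aldh1a2 was called in none of the 5 comparisons there. Matrix-rich-mesenchyme-like cells, at 0.424% and 0.0701% of somatic cells in XX WT and XY WT, made up 15.0% and 16.9% in XX and XY -KTS KO and gave 30.6% and 27.5% of the somatic Aldh1a2 UMIs there. Their part in the somatic rise of the -KTS KO was not tested. Cluster 26 of the same class, with 592 of its 604 cells from XY +KTS KO replicate 2, had Aldh1a2 at 397 CPM (2314 UMIs). Its part in the rise of XY +KTS KO was not tested either.

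In the supporting lineage Aldh1a2 was at 38.5 and 38.0 CPM in XX WT and at 12.04 and 18.18 CPM in XY WT. It was lower in XY WT than in XX WT (log2FC -1.25 ± 0.27, edgeR adjusted p = 0.00501), a call lost without XY WT replicate 1 (edgeR adjusted p = 0.0514). In XY +KTS KO supporting cells it was at 38.3 and 20.1 CPM, above both XY WT libraries (log2FC 0.83 ± 0.27, edgeR adjusted p = 0.0419), a call lost without XY WT replicate 1 (edgeR adjusted p = 0.235) or XY +KTS KO replicate 1 (edgeR adjusted p = 0.547). The XY +KTS KO libraries differed in the make-up of this class, as given above.

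Aldh1a3 (chr7:66390890-66427517, minus strand), the remaining retinaldehyde dehydrogenase, was low: 2.67 and 3.38 CPM in XX WT somatic cells and 0.682 and 0.526 CPM in XX -KTS KO. The 2 groups did not overlap. It fell in XX -KTS KO (log2FC -2.25 ± 0.41, edgeR adjusted p = 0.00609), a call lost without XX -KTS KO replicate 2 (edgeR adjusted p = 0.0555). In somatic cells XX +KTS KO against XX WT missed the threshold (log2FC -1.48 ± 0.40, edgeR adjusted p = 0.0644). It was called by DESeq2 (adjusted p = 0.0088) and with no filter on low counts (edgeR adjusted p = 0.0187). In the supporting lineage Aldh1a3 fell in both sexes of the -KTS KO, from 2.82 in both XX WT libraries to 0.351 and 0.371 CPM in XX (log2FC -2.86 ± 0.53, edgeR adjusted p = 0.00405). In XY it went from 1.66 and 2.76 to 0.257 and 0.195 CPM (log2FC -3.25 ± 0.56, edgeR adjusted p = 0.00107), and both calls held in every alternative. Of the 477 somatic Aldh1a3 UMIs of XX WT, 45.1% came from supporting cells and 47.4% from unnamed clusters. The unnamed cluster 25, led by Plac8, Egfl6, Pdgfrl and Pax8 and 87.7% from XX WT, held 219 Aldh1a3 UMIs (30.9 CPM) and Stra6 at 44.0 CPM over its 656 cells.

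Cyp26b1 (chr6:84571414-84593908, minus strand), the enzyme that clears retinoic acid in the fetal testis, was at 37.3 and 59.1 CPM in XY WT somatic cells and at 8.29 and 8.04 CPM in XX WT. It was at 3.45 and 3.84 CPM in XX -KTS KO and at 5.62 and 7.17 CPM in XY -KTS KO. It was at 9.73 and 7.75 CPM in XX +KTS KO and at 16.8 and 6.09 CPM in XY +KTS KO. The XY WT libraries lay above the other 10. Cyp26b1 was higher in XY WT than in XX WT (log2FC 2.62 ± 0.37, edgeR adjusted p = 0.0021). It fell in XY -KTS KO (log2FC -2.94 ± 0.37, edgeR adjusted p = 0.000602) and in XY +KTS KO (log2FC -2.18 ± 0.36, edgeR adjusted p = 0.00544). These 3 calls held in every alternative. XX -KTS KO against XX WT missed the threshold in somatic cells (log2FC -1.11 ± 0.36, edgeR adjusted p = 0.0659), but was called by DESeq2 (adjusted p = 0.0127) and with no filter on low counts (edgeR adjusted p = 0.0109).

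In the supporting lineage Cyp26b1 was at 98.8 and 108 CPM in XY WT, at 14.5 and 13.7 in XX WT, at 4.77 and 4.01 in XX -KTS KO and at 7.61 and 11.04 in XY -KTS KO. It was at 18.3 and 15.0 CPM in XX +KTS KO and at 30.7 and 12.4 CPM in XY +KTS KO. It was higher in XY WT than in XX WT (log2FC 2.98 ± 0.29, edgeR adjusted p = 3.51e-05). It fell in XY -KTS KO (log2FC -3.48 ± 0.30, edgeR adjusted p = 1.12e-05), XY +KTS KO (log2FC -2.35 ± 0.29, edgeR adjusted p = 0.000222) and XX -KTS KO (log2FC -1.58 ± 0.30, edgeR adjusted p = 0.00434), each in every alternative. Thinned shares of supporting cells with a UMI were 35.5% ± 0.019 (SD, n = 2) in XY WT, 6.43% ± 0.092 in XX WT, 2.26% ± 0.82 and 3.93% ± 0.93 in XX and XY -KTS KO, and 8.04% ± 1.86 and 9.89% ± 3.68 in XX and XY +KTS KO, against at most 0.603% in germ-like cells. Without thinning they were 57.8%, 12.9%, 6.76%, 11.2%, 16.7% and 16.7% in that order. The 7 Sertoli markers summed to between 3839 and 5607 CPM in XY WT supporting cells and to between 48.4 and 483 CPM in those of the other groups. Their part in the differences with XY WT was not tested.

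Cyp26b1 moved the other way outside the supporting lineage of XX -KTS KO: in interstitial-progenitor-like cells it rose from 1.58 and 1.95 CPM in XX WT to 3.862 and 5.004 CPM (log2FC 1.32 ± 0.32, edgeR adjusted p = 0.0129). That call was lost without XX WT replicate 1 (edgeR adjusted p = 0.094), without XX -KTS KO replicate 2 (edgeR adjusted p = 0.0659) and at a clustering resolution of 1.2 (edgeR adjusted p = 0.489). In the same class it was at 6.85 and 10.2 CPM in XY WT, above XX WT (log2FC 2.35 ± 0.31, edgeR adjusted p = 0.00326), and fell to 3.52 and 2.02 CPM in XY +KTS KO (log2FC -1.71 ± 0.29, edgeR adjusted p = 0.00863). The XY +KTS KO libraries lay partly in different clusters of this class. Both calls were lost at that resolution (edgeR adjusted p = 0.391 and 0.312), at which the class held 402 and 362 XX WT cells rather than 1206 and 1376. In coelomic-epithelium-like cells Cyp26b1 rose from 0.585 and 1.58 CPM in XY WT to 3.826 and 5.202 CPM in XY -KTS KO (log2FC 2.07 ± 0.44, edgeR adjusted p = 0.00988), a call lost without XY WT replicate 1 (edgeR adjusted p = 0.121) or XY -KTS KO replicate 2 (edgeR adjusted p = 0.0704) and at a resolution of 1.2 (edgeR adjusted p = 0.113).

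**Figure D3:**
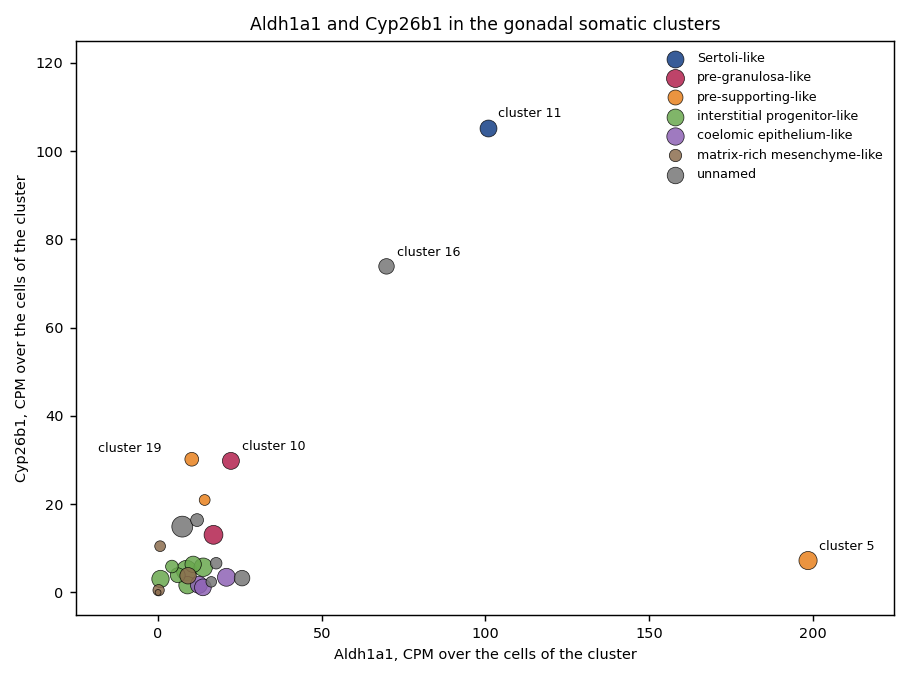
Aldh1a1 (x axis) and Cyp26b1 (y axis) over the pooled cells of each gonadal somatic cluster, in CPM on linear axes, with dot area growing with the number of cells and colour giving the class. Cluster 5, from -KTS KO gonads, lay at 199 and 7.23 CPM, and the Sertoli-like cluster 11 at 101 and 105 CPM.

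The 2 enzymes with opposite roles thus had different patterns over the clusters, given here as pooled values without a test. Cluster 5, pre-supporting-like and 99.7% from -KTS KO gonads, had Aldh1a1 at 199 CPM and Cyp26b1 at 7.23 CPM. The other pre-supporting-like clusters were cluster 19, 71.7% from WT gonads, and cluster 27, 59.1% from +KTS KO gonads. They had Aldh1a1 at 10.3 and 14.2 CPM and Cyp26b1 at 30.2 and 21.0 CPM. Cluster 11, Sertoli-like and 99.7% from XY WT, had both high, at 101 and 105 CPM, and so did cluster 16, unnamed with Sox9 among its leading genes and 83.8% from XY WT, at 69.8 and 73.9 CPM. The pre-granulosa-like cluster 3, 96.8% from XX WT, had 16.9 and 13.1 CPM. Cluster 10, pre-granulosa-like and 98.2% from XY +KTS KO, nearly all of it replicate 1 (2986 cells), had 22.3 and 29.8 CPM, with the immediate early genes Fos, Fosb, Btg2 and Junb among its leading genes. A sum of 10 immediate early genes was 2908 CPM in the somatic cells of XY +KTS KO replicate 1 and 396 to 833 CPM in the other 11 libraries. Cluster 0, unnamed and 99.7% from +KTS KO gonads, had 7.40 and 14.9 CPM over 6977 cells.

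Cyp26a1 (chr19:37697798-37701536, plus strand), which also breaks down retinoic acid, was rare. XY WT somatic cells held 63 UMIs, 96.8% of them in the supporting lineage, and XX WT held none in 155249838 UMIs, which allows up to 0.0193 CPM. XX -KTS KO held none, XY -KTS KO 2, XX +KTS KO 1 and XY +KTS KO 5. Both XY WT libraries, at 0.255 and 0.689 CPM, lay above the other 10, which reached at most 0.0665 CPM. Pooled over libraries, XY WT was at 23.6 times the 3-UMI floor of XX WT, a ratio that leaves out the counting error of XY WT itself. It was at 34.8 times XY -KTS KO (95% exact interval 9.23 to 293) and 15.8 times XY +KTS KO (6.41 to 50.2), with intervals that cover counting error only. Across libraries, edgeR called XY WT over XX WT (adjusted p = 0.0151), XY -KTS KO under XY WT (adjusted p = 0.0168) and XY +KTS KO under XY WT (adjusted p = 0.0398). The first was lost without XX WT replicate 1 (edgeR adjusted p = 0.0726), XX WT replicate 2 (edgeR adjusted p = 0.0901) or XY WT replicate 2 (edgeR adjusted p = 0.0506). The next was lost without XY WT replicate 2 (edgeR adjusted p = 0.0836) or XY -KTS KO replicate 1 or 2 (edgeR adjusted p = 0.092 and 0.111), and the last without XY WT replicate 1 or 2 (edgeR adjusted p = 0.0779 and 0.141) or XY +KTS KO replicate 2 (edgeR adjusted p = 0.0678) and by DESeq2 (adjusted p = 0.0909). In the supporting lineage the first 2 held in every alternative, and the last (edgeR adjusted p = 0.0128) was lost without XY WT replicate 2 (edgeR adjusted p = 0.0553) or XY +KTS KO replicate 1 (edgeR adjusted p = 0.174) and by DESeq2 (adjusted p = 0.106).

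Stra6 (chr9:58063788-58153996, plus strand), the membrane receptor that takes up retinol from its plasma carrier, was at 5.06 and 6.96 CPM in XX WT somatic cells and at 1.31 and 1.68 CPM in XX +KTS KO. The groups did not overlap. It fell there (log2FC -1.97 ± 0.40, edgeR adjusted p = 0.0237), but the call was lost without any 1 of the 4 libraries, with an edgeR adjusted p of 0.0714 and 0.13 without XX WT replicates 1 and 2 and 0.133 and 0.128 without XX +KTS KO replicates 1 and 2. It was lost with all kept cells too (edgeR adjusted p = 0.109). The unnamed cluster 25, with Stra6 at 44.0 CPM, held 3.09% and 7.14% of somatic cells in XX WT replicates 1 and 2. It held 0.377% in XX +KTS KO replicate 1. The part of this cluster in the fall was not tested. In the -KTS KO the direction of Stra6 depended on the class. In XY supporting cells it fell from 8.96 and 15.9 CPM in the controls to 0.823 and 0.244 CPM (log2FC -4.53 ± 0.69, edgeR adjusted p = 0.000465), in every alternative. In interstitial-progenitor-like cells it rose in XY from 1.56 and 2.06 to 4.69 and 6.09 CPM (log2FC 1.47 ± 0.39, edgeR adjusted p = 0.016) and in XX from 2.67 and 2.70 to 13.01 and 4.856 CPM (log2FC 1.78 ± 0.39, edgeR adjusted p = 0.00815). The XY rise was lost without XY WT replicate 1 (edgeR adjusted p = 0.0977), XY WT replicate 2 (edgeR adjusted p = 0.0543) or XY -KTS KO replicate 2 (edgeR adjusted p = 0.088). The XX rise was lost without XX WT replicate 1 (edgeR adjusted p = 0.0565), XX WT replicate 2 (edgeR adjusted p = 0.0525) or XX -KTS KO replicate 1 (edgeR adjusted p = 0.0923), and both were lost at a clustering resolution of 1.2 (edgeR adjusted p = 0.374 and 0.856). In XY +KTS KO supporting cells Stra6 was at 6.19 and 0.366 CPM, in libraries that differed in the make-up of this class as given above. The fall (log2FC -1.70 ± 0.58, edgeR adjusted p = 0.0476) was lost without XY WT replicate 1 (edgeR adjusted p = 0.063), XY WT replicate 2 (edgeR adjusted p = 0.173) or XY +KTS KO replicate 2 (edgeR adjusted p = 0.0716), and at a resolution of 1.2 (edgeR adjusted p = 0.0521).

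Crabp2 (chr3:87948666-87953376, plus strand), the binding protein that hands retinoic acid to nuclear receptors, was low in XY WT and high in XY -KTS KO. In somatic cells it was at 51.0 and 48.5 CPM in XX WT, at 20.1 and 13.4 in XY WT, at 49.8 and 53.9 in XX -KTS KO and at 62.8 and 58.3 in XY -KTS KO. It was at 19.81 and 30.04 CPM in XX +KTS KO and at 16.3 and 32.7 CPM in XY +KTS KO. Both XY -KTS KO libraries lay above both XY WT libraries, while the XX -KTS KO and XX WT ranges overlapped. It rose in XY -KTS KO in the somatic sum (log2FC 1.80 ± 0.36, edgeR adjusted p = 0.00573). It went from 3.43 and 3.63 to 27.9 and 31.8 CPM in supporting cells (log2FC 3.08 ± 0.36, edgeR adjusted p = 7.71e-05), and from 22.3 and 18.0 to 71.3 and 71.1 CPM in interstitial-progenitor-like cells (log2FC 1.70 ± 0.19, edgeR adjusted p = 0.000101), and all 3 calls held in every alternative. Matrix-rich-mesenchyme-like cells held 19.5% of the somatic Crabp2 UMIs of XY -KTS KO and 0.765% of those of XY WT, and their part in the somatic rise was not tested. Against XX WT, XY WT was lower in somatic cells (log2FC -1.48 ± 0.35, edgeR adjusted p = 0.0226), in supporting cells (log2FC -2.58 ± 0.35, edgeR adjusted p = 0.000317) and in interstitial-progenitor-like cells (log2FC -1.50 ± 0.19, edgeR adjusted p = 0.00273). The somatic call was lost without XX WT replicate 1 (edgeR adjusted p = 0.0979), XX WT replicate 2 (edgeR adjusted p = 0.0815) or XY WT replicate 2 (edgeR adjusted p = 0.117) and with all kept cells (edgeR adjusted p = 0.0564), and the interstitial one at a clustering resolution of 1.2 (edgeR adjusted p = 0.689). The supporting call held in every alternative.

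In XX +KTS KO, Crabp2 was called lower in 3 classes, though not over all gonadal somatic cells, which also hold unnamed clusters. It was at 3.61 and 8.27 CPM in supporting cells, against 21.1 and 24.3 in XX WT (log2FC -2.08 ± 0.43, edgeR adjusted p = 0.0223). The make-up of that class differed between the groups. In XX +KTS KO replicates 1 and 2, 289 of 329 and 101 of 106 supporting cells were pre-supporting-like. In those of XX WT, 2227 of 2765 and 2264 of 2717 were pre-granulosa-like. The part of this make-up in the fall was not tested. Crabp2 was at 22.1 and 30.3 against 62.9 and 60.3 in interstitial-progenitor-like cells (log2FC -1.20 ± 0.19, edgeR adjusted p = 0.014). It was at 54.3 and 61.9 against 139 and 120 in coelomic-epithelium-like cells (log2FC -1.12 ± 0.24, edgeR adjusted p = 0.0282). The groups did not overlap in any of the 3, but each call was lost without any 1 of the 4 libraries. Without XX WT replicates 1 and 2 and XX +KTS KO replicates 1 and 2 the edgeR adjusted p was 0.0602, 0.0762, 0.272 and 0.058 in supporting cells, 0.111, 0.0795, 0.116 and 0.0867 in interstitial-progenitor-like cells and 0.203, 0.0931, 0.183 and 0.163 in coelomic-epithelium-like cells. The interstitial and coelomic calls were lost at a resolution of 1.2 as well (edgeR adjusted p = 0.66 and 0.0601). In coelomic-epithelium-like cells XX -KTS KO was lower too, at 63.1 and 72.6 CPM (log2FC -0.88 ± 0.23, edgeR adjusted p = 0.0477), a call likewise lost without any 1 of the 4 libraries (edgeR adjusted p = 0.265 and 0.116 without XX WT replicates 1 and 2, 0.254 and 0.23 without XX -KTS KO replicates 1 and 2) and at that resolution (edgeR adjusted p = 0.161).

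Crabp1 (chr9:54764748-54773110, plus strand), the other cellular retinoic acid binding protein, varied widely within groups. In somatic cells it was at 4.25 and 9.34 CPM in XX WT, at 11.9 and 6.57 in XY WT, at 44.9 and 15.0 in XX -KTS KO and at 27.9 and 14.4 in XY -KTS KO. It was at 11.4 and 8.15 CPM in XX +KTS KO and at 25.7 and 48.6 CPM in XY +KTS KO. Both -KTS KO groups and XY +KTS KO lay above their controls. XY -KTS KO was not called (log2FC 1.14 ± 0.61, edgeR adjusted p = 0.209). XY +KTS KO was not called (edgeR adjusted p = 0.0698), but was with no filter on low counts (edgeR adjusted p = 0.00758) and with all kept cells (edgeR adjusted p = 0.046). It was called in XX -KTS KO (log2FC 2.21 ± 0.63, edgeR adjusted p = 0.0395), and that call was lost without XX WT replicate 1 (edgeR adjusted p = 0.23), XX WT replicate 2 (edgeR adjusted p = 0.073) or XX -KTS KO replicate 1 (edgeR adjusted p = 0.288) and with all kept cells (edgeR adjusted p = 0.0521). Matrix-rich-mesenchyme-like cells held 36.1% of the somatic Crabp1 UMIs of XX -KTS KO and 2.71% of those of XX WT, and their part in the difference was not tested. In XX -KTS KO it rose in interstitial-progenitor-like cells, from 7.78 and 18.9 to 81.9 and 35.5 CPM (log2FC 2.16 ± 0.48, edgeR adjusted p = 0.00897), a call lost without XX WT replicate 1 (edgeR adjusted p = 0.077), without XX -KTS KO replicate 1 (edgeR adjusted p = 0.0986) and at a clustering resolution of 1.2 (edgeR adjusted p = 0.443).

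In coelomic-epithelium-like cells Crabp1 went down in the -KTS KO. It was at 21.8 and 12.1 CPM in XY WT and at 2.72 and 1.30 CPM in XY -KTS KO (log2FC -3.20 ± 0.47, edgeR adjusted p = 0.00128), which held in every alternative. In XX it was at 9.06 and 11.7 CPM against 3.29 and 2.33 CPM (log2FC -1.82 ± 0.45, edgeR adjusted p = 0.0342), a call lost without any 1 of the 4 libraries (edgeR adjusted p = 0.0825 and 0.185 without XX WT replicates 1 and 2, 0.117 and 0.261 without XX -KTS KO replicates 1 and 2). In XY +KTS KO, 42.1% of the 6678 somatic Crabp1 UMIs came from matrix-rich-mesenchyme-like cells, which were 4.96% of the somatic cells. Replicate 2 carried these, with 2811 of its 4748 somatic Crabp1 UMIs in 648 such cells, against 1 of 1930 UMIs in 4 cells of replicate 1. Among them cluster 36 (45 cells, led by Fibin, Foxd1 and Efemp1) had 2645 CPM and cluster 26 (604 cells, led by Hoxc10, Hoxa10 and Hoxa9) 193 CPM, and 592 cells of cluster 26 and 40 of cluster 36 came from XY +KTS KO replicate 2.

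Rarb (chr14:16430839-16819156, minus strand), a retinoic acid receptor that is itself induced by retinoic acid, was at 0.906 and 2.70 CPM in XX WT somatic cells and at 0.470 and 0.657 CPM in XY WT. It was at 7.83 and 5.75 CPM in XX -KTS KO and at 6.67 and 8.44 CPM in XY -KTS KO. It was at 1.39 and 3.49 CPM in XX +KTS KO and at 1.25 and 3.38 CPM in XY +KTS KO. The 4 -KTS KO libraries lay above the other 8. Rarb rose in XY -KTS KO (log2FC 3.71 ± 0.67, edgeR adjusted p = 0.00366) in every alternative, and XX -KTS KO missed the threshold (log2FC 1.98 ± 0.60, edgeR adjusted p = 0.051). XX -KTS KO was called by DESeq2 (adjusted p = 0.00506) and with no filter on low counts (edgeR adjusted p = 0.00612). XY +KTS KO missed it as well (log2FC 2.00 ± 0.64, edgeR adjusted p = 0.0687) and was called by DESeq2 (adjusted p = 0.00907) and with no filter (edgeR adjusted p = 0.0113). In replicate 2 of XY +KTS KO 178 of the 330 somatic Rarb UMIs lay in its 648 matrix-rich-mesenchyme-like cells, against 1 of 94 in 4 such cells of replicate 1.

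Interstitial-progenitor-like cells gave 46.4% of the somatic Rarb UMIs of XY -KTS KO and 50.7% of those of XX -KTS KO, and supporting cells 4.22% and 4.18%. Matrix-rich-mesenchyme-like cells, whose share of somatic cells was higher in the -KTS KO than in WT as given above, held 26.4% and 26.3%, at 7.74 and 12.05 CPM in XY and at 9.42 and 6.24 CPM in XX. Their part in the somatic difference was not tested. In interstitial-progenitor-like cells Rarb was at 1.74 and 4.24 CPM in XX WT and at 0.571 and 1.09 CPM in XY WT. It was at 13.4 and 10.3 CPM in XX -KTS KO and at 9.78 and 14.3 CPM in XY -KTS KO, with no overlap with the controls of either sex. It rose there in XY -KTS KO (log2FC 3.79 ± 0.51, edgeR adjusted p = 0.000303), in every alternative, and in XX -KTS KO (log2FC 2.00 ± 0.46, edgeR adjusted p = 0.0103), a call lost without XX WT replicate 1 (edgeR adjusted p = 0.0849) or XX -KTS KO replicate 1 (edgeR adjusted p = 0.0751). The rises called in supporting cells, at log2FC 2.57 ± 0.75 in XX (edgeR adjusted p = 0.0371) and 3.59 ± 0.92 in XY (edgeR adjusted p = 0.0108), were of levels of at most 2.15 CPM. The XX call was lost without XX WT replicate 1 or 2 (edgeR adjusted p = 0.209 and 0.101) or XX -KTS KO replicate 2 (edgeR adjusted p = 0.377), by DESeq2 (adjusted p = 0.0741) and at a resolution of 1.2 (edgeR adjusted p = 0.0706). The XY call was lost without XY WT replicate 1 (edgeR adjusted p = 0.0742) or XY -KTS KO replicate 1 (edgeR adjusted p = 0.0872). Of the 2 members with a DR5 element in the promoters shown above, Rarb was thus higher and Cyp26a1 lower in XY -KTS KO than in XY WT.

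**Figure D4:**
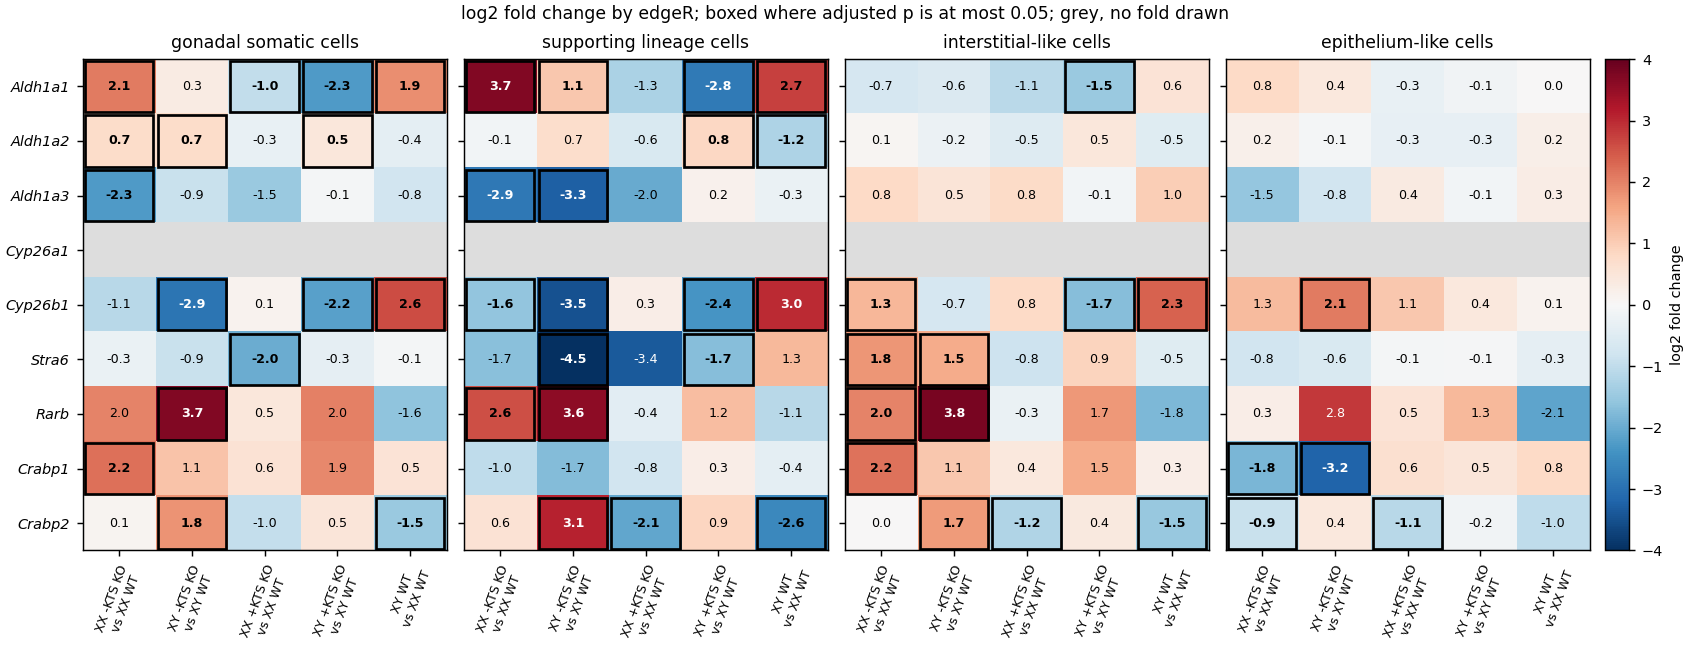
Log2 fold changes by edgeR of the 9 genes (lines of each panel) in 5 comparisons (columns) in gonadal somatic cells, the supporting lineage, interstitial-progenitor-like and coelomic-epithelium-like cells, coloured from -4 to 4, boxed where the adjusted p was at most 0.05, grey where no fold is drawn (Cyp26a1, which was at 0 in some groups, and genes not tested in a class). In XX -KTS KO, Cyp26b1 is blue in supporting cells (-1.58) and red in interstitial-progenitor-like cells (1.32).

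By class, the members called over the 5 comparisons were 22 in the supporting lineage, 12 in interstitial-progenitor-like cells, 5 in coelomic-epithelium-like cells and 0 in germ-like cells, where 9, 8, 8 and 7 of the members could be tested. In the supporting lineage 4, 7, 1, 5 and 5 of the 9 members were called in XX -KTS KO, XY -KTS KO, XX +KTS KO, XY +KTS KO and XY WT against XX WT, where 16.3%, 33.9%, 4.21%, 28.4% and 28.2% of all genes were. In interstitial-progenitor-like cells the counts were 4, 3, 1, 2 and 2 of 8, against 21.5%, 29.8%, 1.67%, 5.22% and 2.86% of all genes. In coelomic-epithelium-like cells they were 2, 2, 1, 0 and 0 of 8, against 5.72%, 11.9%, 2.42%, 2.52% and 1.63%. In germ-like cells edgeR's quasi-likelihood test called 0.0799%, 0%, 0.0799%, 0% and 0.763% of all genes. Of the 7 members tested 2, 3, 1, 1 and 3 had an unadjusted p under 0.05, against 1503, 827, 1127, 1127 and 1516 of all 13765 genes. DESeq2 called none of them, against 117, 34, 44, 35 and 261 of all genes. In the somatic sum 19 calls were made over the 5 comparisons, and 9 of these held in every alternative tried. Of the calls in the supporting lineage, interstitial-progenitor-like and coelomic-epithelium-like cells 14 of 22, 2 of 12 and 1 of 5 did. No called member changed sign in any alternative.

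The effect of each mutation was also compared between the sexes in gonadal somatic cells. The -KTS KO effect on Aldh1a1 was smaller in XY than in XX (difference in log2FC, XY minus XX, -1.74 ± 0.27, edgeR adjusted p = 0.0124), the 1 member called where 3.09% of all genes were. The +KTS KO effect differed for Aldh1a1 (-1.28 ± 0.27, edgeR adjusted p = 0.0318) and Cyp26b1 (-2.33 ± 0.50, edgeR adjusted p = 0.0343), 2 members where 3.96% of all genes were called. In +KTS KO gonads both genes fell in XY, from the higher level of XY WT, and the XX +KTS KO libraries lay between 5.90 and 9.73 CPM for both. None of these 3 calls held in every alternative. For the -KTS KO and Aldh1a1 the edgeR adjusted p was 0.0656 without XX WT replicate 1, 0.0507 without XX -KTS KO replicate 1 and 0.0638 without XY -KTS KO replicate 1. For the +KTS KO and Aldh1a1 it was 0.115 and 0.086 without XX WT replicates 1 and 2, 0.0724 and 0.0527 without XY WT replicates 1 and 2, and 0.0917 without XX +KTS KO replicate 1. For Cyp26b1 it was 0.104 and 0.118 without XX WT replicates 1 and 2, 0.0593 and 0.0598 without XY WT replicates 1 and 2, and 0.0943 and 0.0698 without XX +KTS KO replicates 1 and 2. With all kept cells the 3 were lost at an edgeR adjusted p of 0.0565, 0.119 and 0.0513 in that order, and without TMM scaling both +KTS KO differences were, at 0.079 for Aldh1a1 and 0.0658 for Cyp26b1. By class, edgeR also called sex differences, given without alternatives. In the supporting lineage that of the -KTS KO was positive for Crabp2 and negative for Aldh1a1 and Cyp26b1 (834 and 1026 of 15522 genes). That of the +KTS KO was positive for Crabp2 and Aldh1a2 and negative for Cyp26b1 (762 and 697 genes). In interstitial-progenitor-like cells Crabp2 was positive for both mutations (26 and 49 of 15309 genes) and Cyp26b1 negative for the +KTS KO (50 genes).

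Of 33 further genes of vitamin A uptake, retinol oxidation, breakdown, nuclear receptors and known targets, 25 could be tested in somatic cells. In XX -KTS KO 5 were higher and 1 lower, where 6.89% of all genes were higher and 9.62% lower. In XY -KTS KO 9 were higher and 1 lower, where 11.1% of all genes were higher and 12.5% lower. None was called in XX +KTS KO (5.16% of all genes), 1 was higher in XY +KTS KO (6.18% of all genes higher) and 1 was lower in XY WT than in XX WT (6.35% of all genes lower). The median log2FC of these genes was 0.05, 0.46, 0.08, 0.42 and -0.21. The share of matrix-rich-mesenchyme-like cells was higher in the -KTS KO than in WT, as given above. Their part in the differences below was not tested. Meis2, a homeobox gene that responds to retinoic acid, rose in both sexes of the -KTS KO, in XX from 55.2 ± 16.8 to 200 ± 13.4 CPM (SD, n = 2; log2FC 1.92 ± 0.29 SE, edgeR adjusted p = 0.0024) and in XY from 50.8 ± 7.65 to 190 ± 48.5 CPM (log2FC 1.87 ± 0.29, edgeR adjusted p = 0.00175). Its relative Meis1 rose as well, by a log2FC of 1.32 ± 0.20 in XY (edgeR adjusted p = 0.00148) and 0.82 ± 0.20 in XX (edgeR adjusted p = 0.0199). The XX call was lost without XX WT replicate 1 (edgeR adjusted p = 0.155) or XX -KTS KO replicate 1 (edgeR adjusted p = 0.126), without TMM (edgeR adjusted p = 0.0513) and with all kept cells (edgeR adjusted p = 0.0924). In XY -KTS KO the corepressor Nrip1 (log2FC 0.75 ± 0.19, edgeR adjusted p = 0.0171) and Dhrs3, which turns retinaldehyde back to retinol (log2FC 0.73 ± 0.23, edgeR adjusted p = 0.0447), were higher too. The Nrip1 call was lost without XY WT replicate 1 (edgeR adjusted p = 0.107) or XY -KTS KO replicate 2 (edgeR adjusted p = 0.131) and with all kept cells (edgeR adjusted p = 0.0941). The Dhrs3 call was lost without any 1 of the 4 libraries, with an edgeR adjusted p of 0.18 and 0.12 without XY WT replicates 1 and 2 and 0.0705 and 0.245 without XY -KTS KO replicates 1 and 2, and with all kept cells (edgeR adjusted p = 0.0654). Cdx1, named after its values were seen, was the gene lower in both sexes of the -KTS KO (log2FC -1.72 ± 0.45 in XX, edgeR adjusted p = 0.0292, and -1.95 ± 0.48 in XY, edgeR adjusted p = 0.0159), at mean levels under 1 CPM. Its XX call was lost without any 1 of the 4 libraries (edgeR adjusted p = 0.0697 and 0.138 without XX WT replicates 1 and 2, 0.189 and 0.0618 without XX -KTS KO replicates 1 and 2). Its XY call was lost without XY WT replicate 2 (edgeR adjusted p = 0.105) or XY -KTS KO replicate 1 or 2 (edgeR adjusted p = 0.0798 and 0.0859). Both were lost with all kept cells (edgeR adjusted p = 0.863 in XX and 0.475 in XY). In XY WT, Nrip1 was lower than in XX WT (log2FC -0.64 ± 0.19, edgeR adjusted p = 0.0493), a call lost without any 1 of the 4 libraries (edgeR adjusted p = 0.0875 and 0.272 without XX WT replicates 1 and 2, 0.274 and 0.0696 without XY WT replicates 1 and 2), without TMM (edgeR adjusted p = 0.0689) and with all kept cells (edgeR adjusted p = 0.206). The gene called in XY +KTS KO was Rdh10, which makes retinaldehyde from retinol, at 10.3 ± 0.36 against 4.33 ± 0.56 CPM (log2FC 1.17 ± 0.23, edgeR adjusted p = 0.0114). It is named here after its values were seen, and its call was lost without XY WT replicate 1 (edgeR adjusted p = 0.0814). Of the 18 calls of these genes 5 held in every alternative.

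The genes whose level over the 12 libraries was most like that of a member were taken from those with a mean of at least 20 CPM in somatic cells, by Pearson's r of log2(CPM + 1), as a description. The points share libraries and the 6 groups. For Aldh1a1 these were Sipa1l1 (r = 0.945) and Npepl1 (r = 0.944), for Cyp26b1 Agpat4 (r = 0.963) and Hsd17b12 (r = 0.957), for Aldh1a2 Dtx3 (r = 0.926) and Col3a1 (r = 0.906). For Rarb they were Col1a1 (r = 0.950) and Nr2f1 (r = 0.949), the latter a marker of the interstitial-progenitor-like class, and for Crabp2 Ap3s2 (r = 0.958) and Krt18 (r = 0.946). Col1a1 and Col3a1 are markers of the matrix-rich-mesenchyme-like class and Krt18 one of the coelomic-epithelium-like class. For Stra6 and Crabp1 no gene exceeded r = 0.783 and r = 0.770.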

How the data were processed

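Gonads of 12 libraries were profiled with 10x Genomics 3′ chemistry. The deposited files hold raw UMI counts, which per the labels the authors obtained with Cell Ranger 6.0 and mm10; the annotation release is not given in the sources used here. No per-sample column was left unused. Barcodes under 1000 genes or over 10% mitochondrial UMIs were dropped, and the barcodes with the highest Scrublet scores (0.8% per 1000 barcodes, scanpy 1.11.5) were removed as doublets, since Scrublet's own threshold marked almost none in most libraries. Cells were clustered with sctransform 0.4.2 and Seurat 5.3.0 in R 4.3.3 (2984 variable genes after 16 retinoic acid genes were left out, 50 principal components, 20 neighbours, resolution 0.8), and clusters were named from marker lists. No cell annotation by the authors was used here, so classes may differ from theirs.

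UMIs were summed per library and class. CPM is a gene's UMIs scaled to the total of that sum. edgeR 4.0.16 (TMM, filterByExpr, quasi-likelihood test, 6 group means over 12 libraries) gave fold changes, standard errors and p-values, adjusted by the Benjamini-Hochberg method over all genes tested at a threshold of 0.05. Tests were first run on simulated counts in which 200 genes had known changes. Floors are 3 UMIs and, like the intervals, cover counting error only. Shares of cells with a UMI were also taken after thinning to 5000 UMIs.

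The 9 genes, the marker lists and the 33 further retinoic acid genes were chosen with earlier results of these data known. Of the further genes, those called in somatic cells with libraries that did not overlap and a higher mean of 20 CPM or more were named, at most 5 per comparison by fold. A gene that this rule names is counted but not reported here. Alternatives were DESeq2 1.42.0, no TMM, no filter, a replicate block, leaving out each library, all kept cells and resolutions of 0.4 and 1.2. Leaving out shallow clusters and a crossed block were added after the data were seen. Promoters came from a RefSeq table for GRCm38.p6 and gene positions from GENCODE on GRCm38.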

Additional observations from a re-analysis of the deposited data

Results flagged for a closer look

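In 3 cases the effect of a mutation in gonadal somatic cells differed between XX and XY by edgeR's quasi-likelihood test of the difference. The -KTS KO effect on Aldh1a1 differed by -1.74 on the log2 scale (XY minus XX, edgeR adjusted p = 0.0124), with XX -KTS KO above XX WT in both libraries and XY -KTS KO above XY WT by a smaller amount. XY -KTS KO against XY WT was not called for it. The +KTS KO effect differed by -1.28 for Aldh1a1 (edgeR adjusted p = 0.0318) and by -2.33 for Cyp26b1 (edgeR adjusted p = 0.0343), with both XY +KTS KO libraries below both XY WT libraries for each gene. As given above, none of these 3 calls held in every alternative tried.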

How the results depend on the processing

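Calls of members at an adjusted p of 0.05 depended on single libraries and on the filter. Leaving out 1 library moved the number of members called in gonadal somatic cells from 4 to 3 in XX -KTS KO, from 5 to between 4 and 5 in XY -KTS KO, from 2 to between 0 and 1 in XX +KTS KO, from 4 to between 2 and 4 in XY +KTS KO and from 4 to between 2 and 4 between the controls. Calls over all genes moved from 2922 to between 1180 and 1479, from 4185 to between 2169 and 2768, from 913 to between 157 and 327, from 2254 to between 749 and 3053 and from 2367 to between 835 and 2025 in that order. It moved the count from 1 to between 0 and 1 for the -KTS KO sex difference and from 2 to between 0 and 3 for that of the +KTS KO. Calls over the 5 comparisons went from 22 to between 17 and 22 in the supporting lineage, from 12 to between 7 and 12 in interstitial-progenitor-like cells and from 5 to between 2 and 6 in coelomic-epithelium-like cells, and stayed at 0 in germ-like cells. For the sex differences and the classes, counts over all genes with 1 library left out are not given here. With all kept cells, 0 members were called in XX +KTS KO (447 of all 18896 genes), 0 for the -KTS KO sex difference (0.789% of all genes) and 0 for that of the +KTS KO (1.33%). The -KTS KO sex difference had 3 members called by DESeq2 (7.39% of all genes) and 3 with no filter (3.93%), and that of the +KTS KO had 1 without TMM (3.29%). With no filter 19 calls of 45 tests were made in interstitial-progenitor-like, 11 of 40 in coelomic-epithelium-like and 9 of 45 in germ-like cells, against 11.4%, 6.29% and 1.79% of the tests of all genes. At a resolution of 1.2 there were 7 and 2 of 40 in the first 2 of these, against 12.3% and 3.95%, and Cyp26b1 in interstitial-progenitor-like cells of XY -KTS KO, which was not called, changed from a log2FC of -0.67 to 0.35. The cause of these changes was not tested. The replicate numbers showed no sign of pairing the samples: correlations of replicate differences between compared groups were -0.22, 0.17, 0.02, -0.01 and -0.02 in the order of the comparisons. Such correlations cannot exclude a shared litter or run. A fit with the replicate block kept 56 of 61 member calls and gained 4 (Rarb in somatic cells of XX -KTS KO and XY +KTS KO and in interstitial-progenitor-like cells of XY +KTS KO, and the +KTS KO sex difference of Aldh1a2, edgeR adjusted p = 0.0172, 0.0479, 0.0436 and 0.0496). It lost Crabp1 in somatic cells of XX -KTS KO, Cyp26a1 in those of XY +KTS KO, Rarb in supporting cells of XX -KTS KO, Aldh1a2 in those of XY +KTS KO and Crabp2 in coelomic-epithelium-like cells of XX -KTS KO (edgeR adjusted p = 0.0631, 0.0656, 0.0507, 0.059 and 0.0649). It had 4, 5, 2, 4 and 4 members called in gonadal somatic cells, against 2750, 3971, 808, 1967 and 2139 of all 17695 genes. With the numbers crossed for XX -KTS KO, 4 members and 2697 of all 17695 genes were called. Depth limits Cyp26a1, which rested on at most 63 UMIs per group, and Aldh1a3 and Rarb within classes.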

Other observations

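Values outside the comparisons are given without explanation, for clusters chosen after their values were seen. Crabp1, a cellular retinoic acid binding protein, varied between replicates in germ-like cells: it was at 3.18 and 31.5 CPM in XX WT and at 1.54 and 47.2 CPM in XX -KTS KO, and at 1.66 and 1.09 CPM in XY WT. It was at 27.4 and 9.09 CPM in XY -KTS KO, at 16.0 and 29.3 CPM in XX +KTS KO and at 16.89 and 16.97 CPM in XY +KTS KO, so that the widest gaps between replicates were in XX WT and XX -KTS KO. A matrix-rich-mesenchyme-like cluster of 604 cells, led by Hoxc10, Hoxa10 and Hoxa9 and with 592 cells from replicate 2 of XY +KTS KO, held Aldh1a2 at 397 CPM, Stra6 at 39.6 CPM and Rarb at 27.6 CPM over its pooled cells. A mesonephric-tubule-and-duct-like cluster of 72 cells, 71 of them from replicate 2 of XY +KTS KO and kept out of the gonadal somatic cells, held Aldh1a3 at 240 CPM and Crabp2 at 265 CPM.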
